A study of Mus musculus with 20 samples.

Results

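The 10 Illumina libraries of the series were each aligned with GSNAP and with STAR, and the gene counts from both aligners were compared library by library. The members are the columns labelled ILB and UNT in the Illumina table of each aligner, 10 of the 20 libraries of the series, so that every library appears once per aligner and serves as its own control. The livers came from male mice of 12 weeks (strain C57/BL6 in the strain label, C57/B6J in the protocol). Of these, 5 mice had received interleukin-1β (IL-1β, an inflammatory cytokine, 20 µg/kg) and 5 had received saline (untreated), and the tissue was taken 4 h later. Polyadenylated RNA was made into stranded libraries with an Illumina TruSeq kit and read as pairs of 125 bases on a HiSeq instrument. The other 10 libraries are Ion Torrent libraries of the same RNA and enter only as a side observation. The total count of a library with GSNAP was 1.06 times its STAR total in all 10 libraries. With GSNAP, treated mice had 11203762 to 11299651 counts and untreated mice 11539468 to 11727437, and with STAR 10568530 to 10655860 and 10887640 to 11046256, so that every treated library lay below every untreated one in both tables. The authors had re-sampled each table separately, and every level below is a share of the library total in that table, given in percent or in RPM (reads of a gene per 1000000 reads of its library).

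A spliced aligner has to decide where a read belongs when the genome holds several near-identical places for it. Processed pseudogenes are copies of spliced messenger RNAs that were written back into the genome, and they therefore lack introns. A read that crosses an exon junction of the parent gene has to be split to fit the parent, yet it fits an intronless copy in a single piece. Paralogs pose the same choice among genes that keep their introns. The liver is rich in both kinds: it expresses large tandem families such as the major urinary proteins (Mup, secreted pheromone carriers), the serine protease inhibitors Serpina1 and Serpina3, cytochromes P450 and glutathione S-transferases, together with housekeeping genes (ribosomal proteins, glycolytic enzymes, chaperones, ferritin) that have many processed copies. IL-1β drives the hepatic acute phase response, so some of these families are also among the responding genes.

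The sequences of a few pairs show how close these places are. Each run is 125 bases, the length of 1 read, with the exon junction of the spliced gene after base 62. All lie in coding exons of the spliced gene, on build NCBIM37 (mm9), and capitals mark the bases at which the members of a pair differ. The first 3 pairs set a spliced gene against an intronless copy and carry large losses or gains, and the last 3 set tandem neighbours that both have introns against each other. Ahcy (adenosylhomocysteinase, chr2:154890035-154890097 and chr2:154890550-154890611, minus strand) and the 1-exon gene Gm4737 (chr16:46154505-46154629, minus strand) are identical over the window. The same holds for Gapdh (glyceraldehyde-3-phosphate dehydrogenase, chr6:125112664-125112726 and chr6:125112861-125112922, minus strand) with Gm10359 (chr5:106292140-106292264, minus strand). It also holds for Rps12 (a protein of the small ribosomal subunit, chr10:23505421-23505483 and chr10:23505708-23505769, minus strand) with Rps12-ps3 (chr19:59397033-59397157, plus strand). Gstp1 (chr19:4035869-4035931 and chr19:4036688-4036749) and Gstp2 (chr19:4040753-4040815 and chr19:4040982-4041043), neighbouring glutathione S-transferases of the pi class on the minus strand, differ at 5 bases of the window. Mup20 (chr4:61712983-61713045 and chr4:61713670-61713731) and Mup-ps19 (chr4:61618845-61618907 and chr4:61619532-61619593) are identical there, as are Mup14 (chr4:60962812-60962874 and chr4:60963512-60963573) and Mup12 (chr4:60734000-60734062 and chr4:60734677-60734738), all on the minus strand.
Ahcy and Gm4737: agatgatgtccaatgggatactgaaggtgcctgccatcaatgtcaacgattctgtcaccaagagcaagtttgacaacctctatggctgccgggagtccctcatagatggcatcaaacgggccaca
Gapdh and Gm10359: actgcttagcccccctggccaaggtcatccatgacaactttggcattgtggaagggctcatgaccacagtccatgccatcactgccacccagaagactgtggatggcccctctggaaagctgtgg
Rps12 and Rps12-ps3: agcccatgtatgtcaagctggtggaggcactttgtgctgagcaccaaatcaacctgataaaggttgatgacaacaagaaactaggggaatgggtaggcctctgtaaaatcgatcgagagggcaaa
Gstp1: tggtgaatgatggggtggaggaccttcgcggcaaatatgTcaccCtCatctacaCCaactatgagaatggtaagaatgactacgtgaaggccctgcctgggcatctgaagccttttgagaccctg
Gstp2: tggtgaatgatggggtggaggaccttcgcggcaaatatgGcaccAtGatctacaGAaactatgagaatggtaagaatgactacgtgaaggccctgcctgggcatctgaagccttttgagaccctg
Mup20 and Mup-ps19: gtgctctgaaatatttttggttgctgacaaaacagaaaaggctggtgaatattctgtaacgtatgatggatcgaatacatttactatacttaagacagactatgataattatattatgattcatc
Mup14 and Mup12: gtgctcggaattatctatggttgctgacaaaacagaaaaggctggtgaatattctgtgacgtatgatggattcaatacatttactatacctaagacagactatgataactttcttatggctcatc

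The first comparison asked how the reads of a library fell onto gene classes with each aligner. Classes were set from the annotation and from BLASTN matches between coding sequences (at least 90% identity over at least 100 bases) to another gene. All 37310 annotated genes entered these shares with no filter on low counts. Pseudogenes with a coding match, 2758 genes, held 1.56% ± 0.0537 (SD, n = 10) of a library's reads with GSNAP and 0.177% ± 0.0164 with STAR, a ratio of 8.80. Intron-containing coding genes that have a pseudogene match, 1734 genes, moved the other way, from 12.9% ± 0.668 with STAR to 10.2% ± 0.754 with GSNAP. Their share lost 2.69 ± 0.199 percentage points per library, while the matched pseudogenes gained 1.38 ± 0.0476 points.

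Coding genes of 1 exon also held a larger share with GSNAP. Those with a pseudogene match held 0.333% with GSNAP and 0.0261% with STAR, and those with a coding paralog held 0.0877% and 0.0138%. Intron-containing paralogs held 8.79% with STAR and 8.25% with GSNAP, a difference that did not pass on counts not divided by the library total (ratio 0.996). Single-copy coding genes, which hold most reads, had 79.1% with GSNAP and 77.7% with STAR. Each of the 8 classes moved the same way in 10 of 10 libraries, and the exact sign-flip test over libraries gave p = 0.00195 for every class, the smallest p it can give (adjusted p = 0.00195 over 8 classes). Both columns of a library hold largely the same reads, so this p says only that the shift is the same across libraries.

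**Figure D1:**
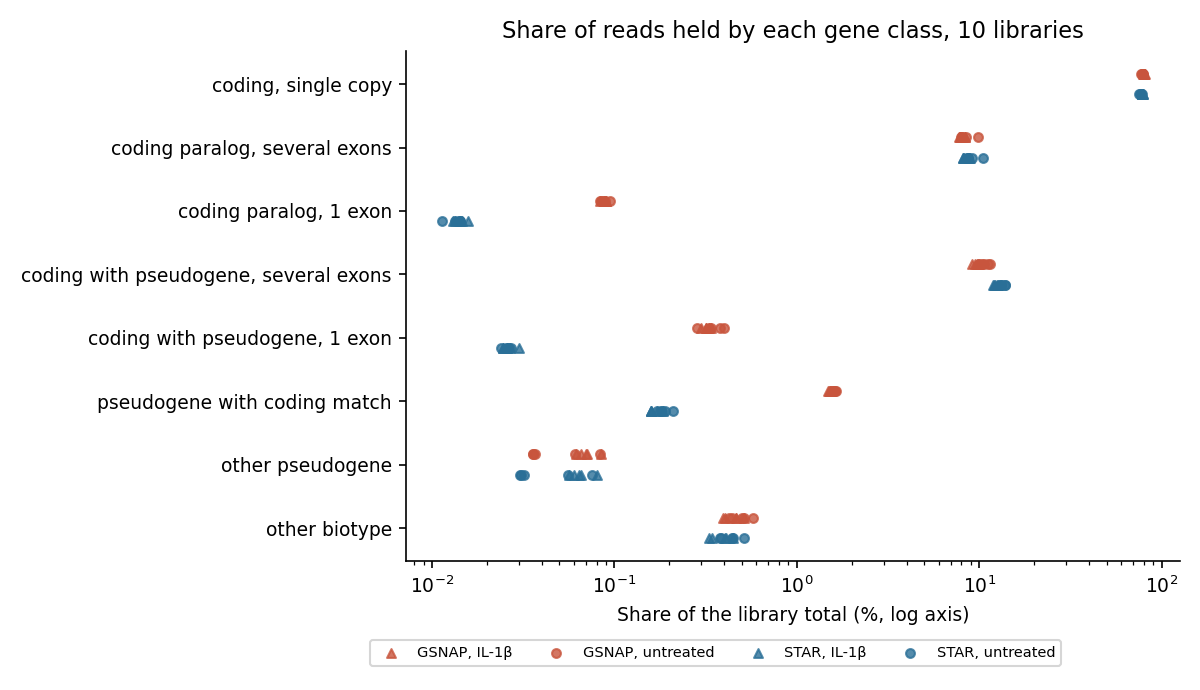
Share of the library total (percent, log axis) held by each gene class, with 1 point per library and table (GSNAP in red, STAR in blue, triangles IL-1β, circles untreated). Pseudogenes with a coding match lie near 1.56% with GSNAP and near 0.177% with STAR, with no overlap between the tables, whereas intron-containing genes with a pseudogene match lie higher with STAR.

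Gene by gene, 13810 genes reached 5 reads in no fewer than 5 libraries of either table. At an adjusted p under 0.05 and at least 2-fold, 1203 of them differed in share between the aligners (8.71% of genes tested; edgeR quasi-likelihood test with library as a block, Benjamini-Hochberg adjustment). Of these, 885 held a larger share with GSNAP (6.41%) and 318 a larger share with STAR (2.3%). Most genes hardly moved, with a median log2 GSNAP/STAR of 0.03. At the adjusted p alone 2522 genes passed (18.3%), 1688 higher with GSNAP (12.2%) and 834 higher with STAR (6.04%). The filter matters for these counts: 693 genes passed it only in the GSNAP table and 142 only in the STAR table, so that the calls among them rest partly on the filter. Among the 12975 genes that passed in both tables, 367 were higher with GSNAP (2.83%) and 233 higher with STAR (1.80%).

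The moved genes were concentrated in a few classes. Of the pseudogenes with a coding match that passed the filter in both tables, 255 of 358 were higher with GSNAP and 22 higher with STAR, with a median log2 ratio of 2.82. A further 390 pseudogenes of this class passed in the GSNAP table only and 67 in the STAR table only. Of 1-exon coding genes in both tables, 51 of 84 with a pseudogene match and 17 of 32 with a coding paralog were higher with GSNAP. Among intron-containing coding genes with a pseudogene match, 181 of 984 were higher with STAR (18.4%) and 15 higher with GSNAP. Single-copy coding genes were nearly untouched, with 4 of 10719 higher with GSNAP and 11 higher with STAR.

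The loss with GSNAP rose with the number of intronless copies of a gene in the genome. The coding sequence of each intron-containing gene was searched against the genome by BLASTN (at least 90% identity over at least 100 bases). Each place elsewhere whose match ran at least 20 bases to both sides of an exon junction was counted as a copy. This count was chosen after the data had been seen. Of 10655 genes with no such place, 6 were higher with STAR (0.0563%). The share was 38 of 815 genes with 1 copy (4.66%), 57 of 479 with 2 to 4 copies (11.9%), 43 of 113 with 5 to 9 copies (38.1%) and 69 of 90 with 10 or more copies (76.7%). Median log2 GSNAP/STAR went from 0.03 with no copy to -0.63 with 5 to 9 copies and -2.19 with 10 or more. In total 207 of the 213 intron-containing coding genes that were higher with STAR had such a copy, including 7 of the 11 that the annotation alone had classed as single copy. An example is Gpx4 (glutathione peroxidase 4, which reduces lipid peroxides), with 2 genomic copies and no annotated match: it had a mean of 9.23 RPM with GSNAP and 155 with STAR.

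**Figure D2:**
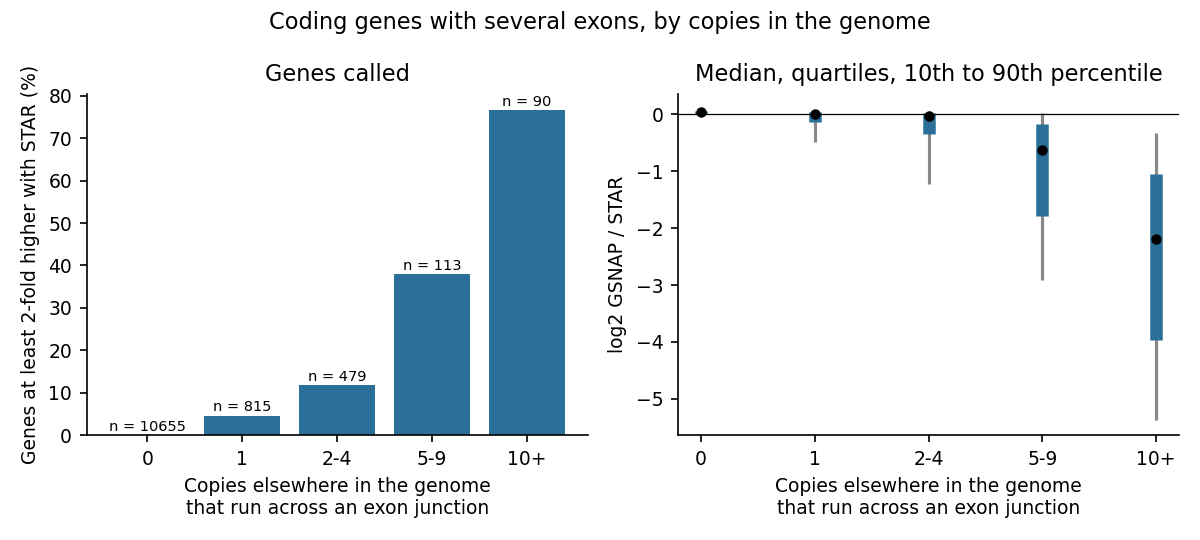
Intron-containing coding genes by the number of other places in the genome that match across an exon junction, with the percentage of genes at least 2-fold higher with STAR as bars (n is genes tested) and log2 GSNAP/STAR as the median (point), quartiles (thick bar) and 10th to 90th percentile (thin line). The percentage rises from 0.0563% with no copy to 76.7% with 10 or more, and the median falls from 0.03 to -2.19.

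Genes with copies were then followed together with their annotated copies, for 993 tested parents. The parents together held 100822 RPM with STAR and 70213 with GSNAP, and their copies held 1333 and 19770. The gain of the copies thus amounted to 60.2% of the loss of the parents. Of these parents, 192 were higher with STAR, and they held 26181 RPM with STAR and 5380 with GSNAP. The gain of their copies was 83.4% of the loss for parents with 1 annotated copy, 64.6% with 2 to 4 copies, 54.4% with 5 to 9 and 27.3% with 10 or more. Where the rest of these reads went was not tested.

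How much of the parent is shared at read length went with the loss. A 125-base window of a parent's coding sequence counted as identical if any of its annotated copies held it. Of 438 parents with no identical window, 11 were higher with STAR, whereas 82 of 106 parents with more than 75% of windows identical were. In between, the counts were 20 of 264 with up to 25% of windows identical and 79 of 185 with 25 to 75%.

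Ass1 (argininosuccinate synthase, a urea cycle enzyme) lost more RPM with GSNAP than any other gene. Ass1 had 132 to 348 RPM with GSNAP (median 255) and 1306 to 3196 with STAR (median 2262), with no overlap between the tables. Gm5424, a 1-exon pseudogene at chr10:61533871-61535109 that matches the Ass1 coding sequence at 99.5% identity, had 1050 to 2563 (median 1796) with GSNAP and 16 to 48.2 (median 33.6) with STAR. The log2 GSNAP/STAR was -3.23 ± 0.0151 (SE) for Ass1 and 5.82 ± 0.0157 for Gm5424. The sum of both was 2167 ± 577 (SD) with GSNAP and 2420 ± 642 with STAR, and in every library the GSNAP sum was 89.0 to 90.1% of the STAR sum. Gm5424 held 1.40% of the reads of the pair with STAR and 88.2% with GSNAP.

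Other pairs with a dominant copy moved in the same way, and the pairs of this paragraph were chosen after their values had been seen. Hspa8 (a constitutive HSP70 chaperone) had a median of 716 RPM with GSNAP and 1864 with STAR, and its copy Gm15459 had 563 and 27.3. Ahcy, which hydrolyses adenosylhomocysteine, had 384 and 1147, and Gm4737 had 509 and 12.5. Eif4a1, the RNA helicase of translation initiation, had 125 and 490, and Eif4a-ps4 had 372 and 9.70. For Eif4a1 and its 3 copies the sum with GSNAP was 99.5 to 101.2% of that with STAR, and for Vcp (an AAA ATPase that extracts proteins for degradation) with Vcp-rs it was 102 to 105%. In these 2 groups the gain of the copies was about as large as the loss of the parent. Scp2 (sterol carrier protein 2) and Ftl1 (ferritin light chain) lost less than 2-fold, with a log2 ratio of -0.45 and -0.97. Their copies Scp2-ps2 and Gm10116 had a median of 642 and 508 RPM with GSNAP, against 14 and 13.6 with STAR. Tpt1, a growth-associated housekeeping protein, fell further, from a median of 790 with STAR to 42.0 with GSNAP, and Gm14456 had 553 with GSNAP and 17.3 with STAR.

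**Figure D3:**
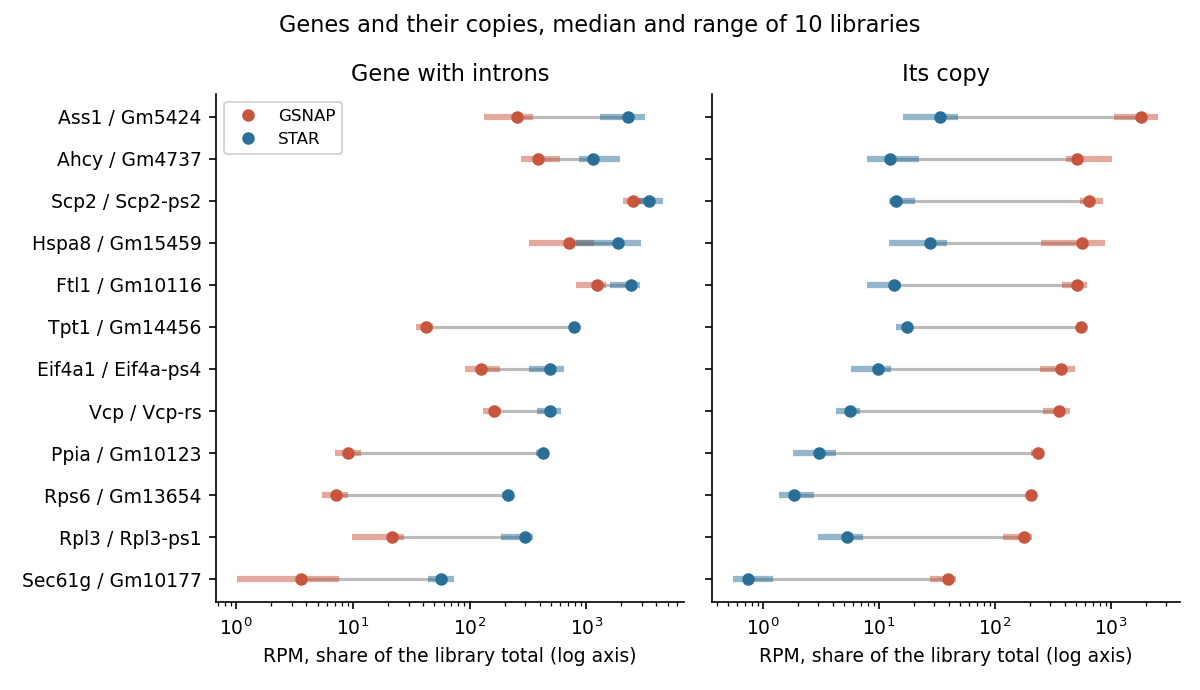
RPM (log axis) of 12 genes with introns and of 1 copy of each in the GSNAP table (red) and the STAR table (blue), with points for the median and bars for the range of 10 libraries. In each of the 12 pairs the median of the gene is lower and that of the copy higher with GSNAP.

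Some genes with many copies lost nearly all their reads with GSNAP, and their annotated copies gained little. Gapdh had 5.67 to 8.87 RPM with GSNAP (median 6.30) and 664 to 1141 with STAR (median 835). The log2 ratio was -6.99 ± 0.0308 (SE). All 78 annotated copies of Gapdh together had 38.5 RPM with GSNAP and 13.4 with STAR, so that gene and copies reached only 4.64 to 6.35% of the STAR sum. Gapdh is widely used as a reference gene for normalising expression, and in the GSNAP table its mean was 0.784% of that with STAR.

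Rps12 had the lowest ratio of all genes with a mean of at least 100 reads, with 0 to 0.514 RPM with GSNAP (median 0.130) and 108 to 203 with STAR (median 175). With its 22 annotated copies it reached 2.87 to 4.25% of the STAR sum. Apart from Gapdh, the other coding genes with the lowest ratios were ribosomal proteins too: Rps27 (median 0.533 with GSNAP and 131 with STAR), Rpl17 (2.02 and 205), Rps29 (1.37 and 110) and Rps23 (2.19 and 155). For Rps27 a copy gained much of what the parent lost: Gm9846, a 1-exon gene that matches its coding sequence at 100% identity, had a median of 84.3 with GSNAP and 0.640 with STAR. The cyclophilin gene Ppia lay between these cases, with 9.16 and 428, and its copy Gm10123 had 236 and 3.02.

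Among coding genes with a mean of at least 100 reads over both tables, those with the highest ratios were mostly intronless copies themselves: Rpl9-ps4, Gm9846, Gm8759, Gm10094 and Gm10123 are 1-exon genes whose closest match is Rpl9, Rps27, Rpl31, Sap18 and Ppia. Rpl9-ps4 had a median of 18.3 RPM with GSNAP and 4 reads in all 10 libraries together with STAR. The remaining one, Mup19, is a spliced member of the Mup cluster. Among pseudogenes at the same minimum, the highest were Mup-ps19, Gm5456 (median 17.6 with GSNAP and 0.137 with STAR), Gm6265 (34.0 and 0.283, a copy of the respiratory subunit gene Cox6c) and Rpl28-ps1 (61.6 and 0.605). Both ends of the ranking thus held members of the same gene families.

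Some pseudogenes were higher with STAR, 22 of the 382 that passed the filter in both tables, while 256 were higher with GSNAP. Over all genes that passed in both, 1.80% were higher with STAR and 2.83% higher with GSNAP. At a mean of at least 100 reads, 3 of the 4 with the lowest ratios were nuclear copies of mitochondrial genes. Gm13340, Gm13341 and Gm13339, adjacent on chr2:22442811-22446053 on the minus strand, have mt-Co1, mt-Co2 and mt-Nd2 as their closest match. Gm13340 had a median of 56.5 RPM with GSNAP and 428 with STAR, Gm13341 11.3 and 185, and Gm13339 12.1 and 23.4. Of 8 nuclear genes whose closest coding match is mitochondrial, 7 passed the filter in either table and were tested. Of these, 5 were higher with STAR and 1 higher with GSNAP, beside 2.3% and 6.41% of all genes tested. All 37 mitochondrial genes are listed at 0 in both tables, since the authors removed reads that mapped to the mitochondrial genome. Whether mitochondrial RNA contributed to these nuclear counts was not tested. The fourth at this minimum was Cyp21a2-ps, a copy of the steroid 21-hydroxylase gene, with a median of 8.50 and 10.4.

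Gene families were then summed. A family held the genes named for it and the pseudogenes whose closest coding match is one of them, so copies that the annotation calls coding under another name, such as Gm9846 and Gm10116, are outside. Ribosomal protein genes were the family with the largest loss. The annotated genes of the family together had 4917 RPM with GSNAP (3914 to 5361 over libraries) and 14489 with STAR (11982 to 15816). Of its 92 genes that passed the filter in both tables, 62 were higher with STAR and 7 higher with GSNAP, and the median log2 ratio was -2.09, beside 0.03 over all genes that passed in both. Of its 96 pseudogenes that did so, 51 were higher with GSNAP and 13 higher with STAR. A further 36 pseudogenes passed only with GSNAP and 31 only with STAR. All annotated pseudogenes of the family together had 2738 and 230 RPM. The family with its pseudogenes held 0.520 of its STAR share with GSNAP. Not every member moved: Rpl4, the most heavily counted one, had a median of 522 with GSNAP and 545 with STAR.

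Other housekeeping families with processed copies lost reads in fewer members, counted here over those that passed the filter in both tables, where 1.80% of all genes were higher with STAR and 2.83% higher with GSNAP. Glycolytic genes had 5904 RPM with GSNAP and 7309 with STAR, with 4 of 11 genes higher with STAR. Respiratory chain genes had 8664 and 9602, with 11 of 80 higher with STAR, and 18 of 20 of their pseudogenes were higher with GSNAP. Chaperones had 9436 and 11232 with 4 of 25 higher with STAR, elongation factors had 5051 and 6132 with 1 of 7, and both ferritin genes together had 2331 and 3471 with neither past 2-fold. On counts not divided by the library total, the ratio with pseudogenes included turned direction for the respiratory chain (1.02) and no longer passed for chaperones (0.989). Eef1a1 (elongation factor 1-alpha) fell from a median of 4416 with STAR to 3474 with GSNAP.

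The Mup cluster on chromosome 4 was the family that gained the most RPM with GSNAP, and its members have introns. The annotated genes together had 20557 RPM with GSNAP (12467 to 31277) and 16712 with STAR (11077 to 23363), and 11 of the 18 genes that passed the filter in both tables were higher with GSNAP (2.83% over all such genes) and none higher with STAR. Mup7 had a median of 3170 with GSNAP and 1206 with STAR, Mup14 had 1240 and 298, and Mup10 had 1543 and 825. Mup19 rose from 0.878 to 68.0. Not all members gained. Mup3, the most heavily counted one, had a median of 8156 with GSNAP and 8774 with STAR. Mup20, the male pheromone darcin, had 1748 with GSNAP and 2921 with STAR. Its neighbour Mup-ps19, which has 6 exons, had 398 to 943 with GSNAP (median 548) and 0 to 0.188 with STAR, 10 reads in all 10 libraries together. The sum of Mup20 and its annotated copies was 77.6 to 81.0% of the STAR sum.

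Mup-ps22, a 1-exon pseudogene at chr11:54937197-54937439 that also matches Mup20, was not exchanged between these tables. It had a median of 5.86 RPM with GSNAP and 5.69 with STAR. The paper describes clearly more coverage of this pseudogene with GSNAP than with STAR, shown for the untreated mouse UNT-9574. That description rests on read depth along the locus on both platforms, and with GSNAP the level was higher for Ion Torrent than for Illumina. The Illumina gene counts used here do not show the difference between the aligners, with 9.36 RPM with GSNAP and 10.2 with STAR in that mouse. Its Ion Torrent counts were not compared here. In the third Illumina table, in which reads left over by STAR were aligned with Bowtie2, the mean of Mup-ps22 was 259.

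Other paralog families differed in how far their members moved. In the Cyp3a family (drug-metabolising cytochromes P450), none of the 4 genes that passed the filter in both tables was called. Over all such genes 2.83% were higher with GSNAP and 1.80% higher with STAR, so this count is near those shares. A further 4 Cyp3a genes passed the filter only with GSNAP and 1 only with STAR. The most heavily counted Cyp3a gene, Cyp3a11, had a median of 5385 with GSNAP and 5985 with STAR. Cyp2a4, another cytochrome P450, had a median of 7.0 with GSNAP and 0.276 with STAR. Hbb-b2, an adult β-globin gene, had 12.7 and 3.23, whereas its twin Hbb-b1 had 34.8 and 29.2, and the globin family as a whole held 1.62 times its STAR share with GSNAP. The alpha-1-antitrypsin family Serpina1 had 0.897 of its STAR share with GSNAP, the Serpina3 family 0.960 and carboxylesterases 0.935. On counts not divided by the library total, Serpina3 turned direction (1.02). Of the 307 zinc finger genes that passed the filter in both tables, none was called at 2-fold. Over all genes that passed in both, 2.83% were higher with GSNAP and 1.80% higher with STAR. Among the single-copy coding genes of that set the shares were 0.0373% and 0.103%. The family tests counted genes and pseudogenes together over 30 families: 22 moved the same way in 10 of 10 libraries (exact sign-flip p = 0.00195, adjusted p = 0.00266).

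**Figure D4:**
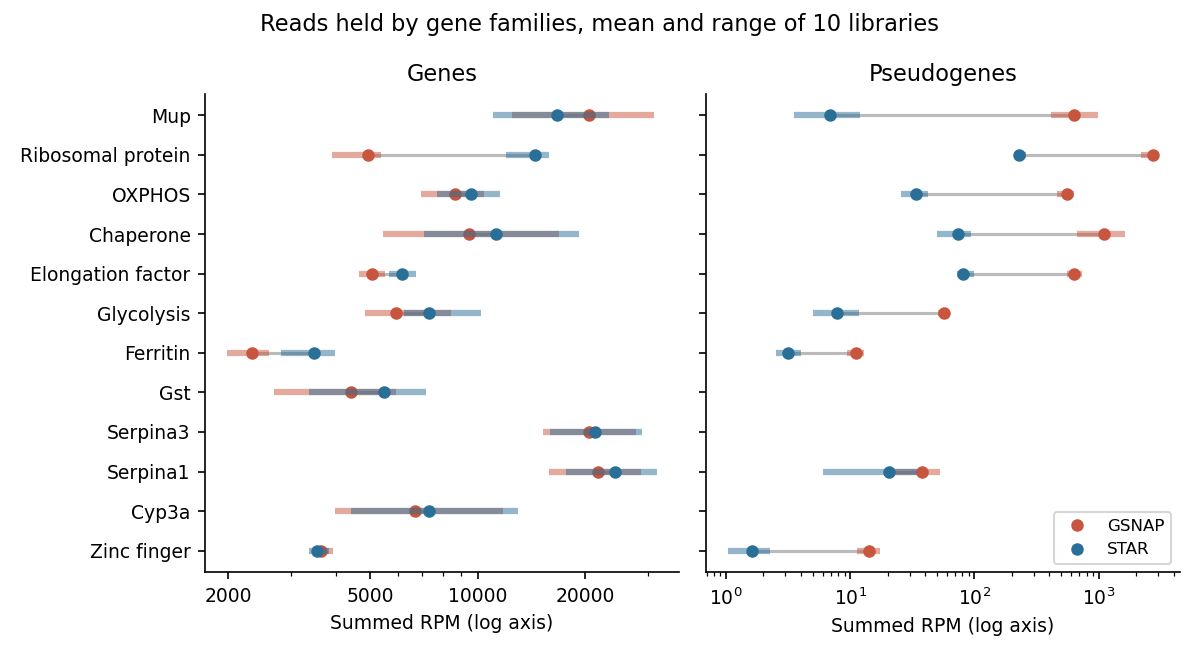
Summed RPM (log axis) of 12 families with GSNAP (red) and STAR (blue), genes and pseudogenes in separate panels, with points for the mean and bars for the range of 10 libraries; OXPHOS stands for respiratory chain genes, and families with no tested pseudogene have no point there. Ribosomal protein genes move from 14489 with STAR to 4917 with GSNAP and their pseudogenes from 230 to 2738, while Mup genes lie higher with GSNAP.

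The libraries were checked against markers of liver cell types. Hepatocyte markers (Alb, Apoa1, Ttr, Cps1, Tat) summed to 61861 to 74831 RPM in treated and 93457 to 111457 in untreated mice with GSNAP, so the defining genes of the labelled tissue were abundant in every library. Neutrophil markers (S100a8, S100a9, Ly6g, Retnlg) summed to 38.6 to 82.8 in treated and 0.687 to 2.51 in untreated mice. Kupffer cell markers summed to 44.6 to 95.6 in treated and 86.9 to 169 in untreated mice with GSNAP. Stellate cell markers summed to 142 to 230 and 226 to 309. For these last sets the treated mice lay mostly lower, with some overlap. No tested marker of the 7 cell types examined passed the shift test at 2-fold or the aligner-by-treatment term. All markers were tested except for neutrophils (3 of 4) and lymphocytes (1 of 3). Fewer cells of a type and less RNA per cell cannot be told apart in these bulk samples, and the part of cell composition in the responses below was not tested.

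The second comparison asked whether these shifts change the response to IL-1β. Treated and untreated mice differed in 7401 genes (53.6%) with GSNAP, 3683 higher (26.7%) and 3718 lower (26.9%), and in 7112 genes (51.5%) with STAR, 3536 higher (25.6%) and 3576 lower (25.9%; edgeR quasi-likelihood test, adjusted p under 0.05, TMM scaling). Scaled to the library total instead, the split was 2862 higher and 4518 lower with GSNAP and 2751 and 4347 with STAR. A Mann-Whitney test, the kind the study used, gave 2230 higher and 4019 lower with GSNAP and 2155 and 3870 with STAR. It ranked the deposited counts of the genes tested here with no scaling, and their totals are lower in every treated library. The difference between both responses was tested directly as an aligner-by-treatment term, with library as a block. It passed for 6 of 13810 genes (0.0434%), while 122 genes had an unadjusted p under 0.05 (0.883%). This is fewer than chance alone gives at that threshold, so the test was cautious in these data. The fit takes both columns of a library as separate counts, although they hold largely the same reads. A gene that did not pass may therefore still differ in its response. In 159 genes (1.15%) the log2 GSNAP/STAR ratios of treated and untreated mice did not overlap. Without the untreated mouse UNT-9574 the count was 21, and without any other mouse it was 5 to 9. With no filter on low counts it was 2, and with no replicate block it was also 2, Gstp2 and Serpina3c.

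For Ass1, its copy and both tables gave responses of like size. Ass1 fell by 0.50 ± 0.16 (log2, SE) with STAR and by 0.51 ± 0.16 with GSNAP, and Gm5424 fell by 0.50 ± 0.16 with GSNAP (adjusted p = 0.0158, 0.0143 and 0.0152, edgeR). Untreated mice had 260, 321, 290, 327 and 348 RPM of Ass1 with GSNAP and treated mice 206, 132, 195, 218 and 251. Gm5424 had 1844, 2403, 2220, 2551 and 2563 in untreated and 1664, 1050, 1368, 1714 and 1749 in treated mice. For both, all treated mice lay below all untreated mice. Each table has its own values for the same mice, so the responses are not independent of each other.

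Pairs that rose were followed in the same way, and they too were chosen after their values had been seen. Hspa8 rose by 0.80 with STAR and 0.86 with GSNAP and Gm15459 by 0.78 with GSNAP, and Eif4a1 rose by 0.90 in both tables and Eif4a-ps4 by 0.89. Btg3, an antiproliferative gene, rose by 3.25 with STAR and by 2.98 with GSNAP, and its 1-exon copy Gm7334 rose by 3.39 with GSNAP. Gm7334 had 3.64, 4.37, 2.13, 3.0 and 2.49 RPM in untreated and 26.1, 28.7, 30.4, 34.9 and 30.9 in treated mice with GSNAP, but at most 1.32 in any library with STAR. S100a11, a calcium-binding protein, rose by 2.73 with STAR and its copy Gm12854 by 2.58 with GSNAP.

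Counted over the 192 parents higher with STAR, 60 passed the response test with GSNAP (31.2%) and 74 with STAR (38.5%), beside 53.6% and 51.5% of all genes tested. Of the 139 leading copies with at least 5 RPM in the GSNAP table, 44 passed with GSNAP (31.7%). The parents were chosen for fewer reads with GSNAP and the copies for more, so the counts of calls cannot be compared between the tables. Among all pseudogenes with a coding match that were tested, 222 of 815 passed with GSNAP and 89 with STAR, but 390 of these had too few reads with STAR to pass its filter. The median response of the 192 parents was 0.11 with STAR and 0.15 with GSNAP.

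Of the 6 genes that passed the term, Gstp2 and Ces2d-ps had fitted responses of opposite sign in the tables. With GSNAP Gstp2 had 52.5, 44.5, 44.0, 54.0 and 56.6 RPM in untreated and 42.8, 27.0, 40.0, 37.8 and 40.6 in treated mice. With STAR it had 2.2, 1.54, 1.72, 3.82 and 2.0 in untreated and 20.6, 13.2, 18.5, 16.8 and 17.7 in treated mice, so that the groups lay apart in the STAR table in one direction and in the GSNAP table in the other. The response was -0.30 ± 0.13 with GSNAP (adjusted p = 0.0706) and 3.06 ± 0.22 with STAR (adjusted p = 7.37e-08), and the term was -3.35 ± 0.11 (adjusted p = 3.2e-12, edgeR). Its neighbour Gstp1, 98.1% identical to it in coding sequence, had -0.33 with GSNAP and -0.35 with STAR, and a median of 574 and 1227 RPM.

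Serpina3c, a secreted protease inhibitor of the acute phase cluster on chromosome 12, rose in both tables but by different amounts. Untreated mice had 1.47, 0.771, 0.682, 1.37 and 0.257 RPM with GSNAP and treated mice 17.9, 16.8, 9.57, 14.9 and 27.3. With STAR the untreated values were 9.64, 8.91, 10.7, 11.7 and 9.37 and the treated values 27.9, 29.4, 23.7, 27.2 and 46.4. The response was 4.36 ± 0.35 with GSNAP and 1.75 ± 0.18 with STAR, and the term 2.61 ± 0.22 (adjusted p = 7.69e-06, edgeR). The groups did not overlap in either table. Serpina3i, in the same cluster, had 8.50 to 15.4 in treated mice with GSNAP and 9.10 to 16.7 with STAR, at most 0.433 in any untreated mouse, and did not pass the term (adjusted p = 1, edgeR). Serpina3e-ps had too few reads to be tested.

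Sec61g, Rpl10 and Rpl12 responded more with GSNAP, where they had far fewer reads than with STAR. Sec61g (a subunit of the protein channel of the endoplasmic reticulum) had 2.60, 2.23, 1.02, 1.29 and 1.29 RPM in untreated and 6.02, 7.59, 4.61, 4.73 and 4.61 in treated mice with GSNAP. With STAR it had 55.8, 55.9, 43.8, 44.5 and 52.4 in untreated and 66.4, 73.0, 67.9, 57.6 and 64.1 in treated mice. Its response was 1.83 with GSNAP and 0.51 with STAR (term 1.32 ± 0.16, adjusted p = 0.00117, edgeR), and without the replicate block it did not pass (adjusted p = 0.0791, edgeR). The copy Gm10177 had a median of 38.9 with GSNAP and a response of 0.44, nearer to that of Sec61g with STAR.

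Rpl10 had 21.0, 24.8, 21.1, 19.7 and 22.9 RPM in untreated and 35.6, 29.5, 38.9, 29.3 and 38.1 in treated mice with GSNAP. With STAR it had 520, 539, 577, 547 and 475 in untreated and 574, 553, 533, 524 and 557 in treated mice, and the groups overlapped. The response was 0.77 with GSNAP (adjusted p = 8.24e-05) and 0.17 with STAR (adjusted p = 0.103), with a term of 0.61 ± 0.09 (adjusted p = 0.00637, edgeR). Rpl12 had 5.46, 6.17, 6.14, 8.07 and 5.24 in untreated and 13.0, 9.91, 16.3, 8.92 and 13.0 in treated mice with GSNAP, and 131 to 198 and 174 to 209 with STAR. Its response was 1.10 and 0.32 and the term 0.78 ± 0.12 (adjusted p = 0.00837, edgeR). Without the untreated mouse UNT-9576 Rpl12 did not pass (adjusted p = 0.0698, edgeR), and without the replicate block neither did (adjusted p = 0.362 for Rpl10 and 1 for Rpl12, edgeR). Both large-subunit proteins are among the genes with more than 10 genomic copies, 17 for Rpl10 and 16 for Rpl12.

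Ces2d-ps, a carboxylesterase gene that the annotation calls coding, is named as the last of the 6, although its mean count is below the minimum of 20 set for naming term genes. It had 13 to 36 reads per library in untreated and 27 to 46 in treated mice with GSNAP. With STAR it had 4, 5, 2, 9 and 6 reads in untreated and 0, 1, 1, 0 and 0 in treated mice. The response was 0.61 ± 0.25 with GSNAP (adjusted p = 0.0519, edgeR) and -3.19 ± 0.72 with STAR (adjusted p = 0.00191, edgeR). The term was 3.82 ± 0.49 (adjusted p = 0.00205, edgeR), but DESeq2 gave an adjusted p of 0.177 and edgeR without the replicate block one of 0.191.

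**Figure D5:**
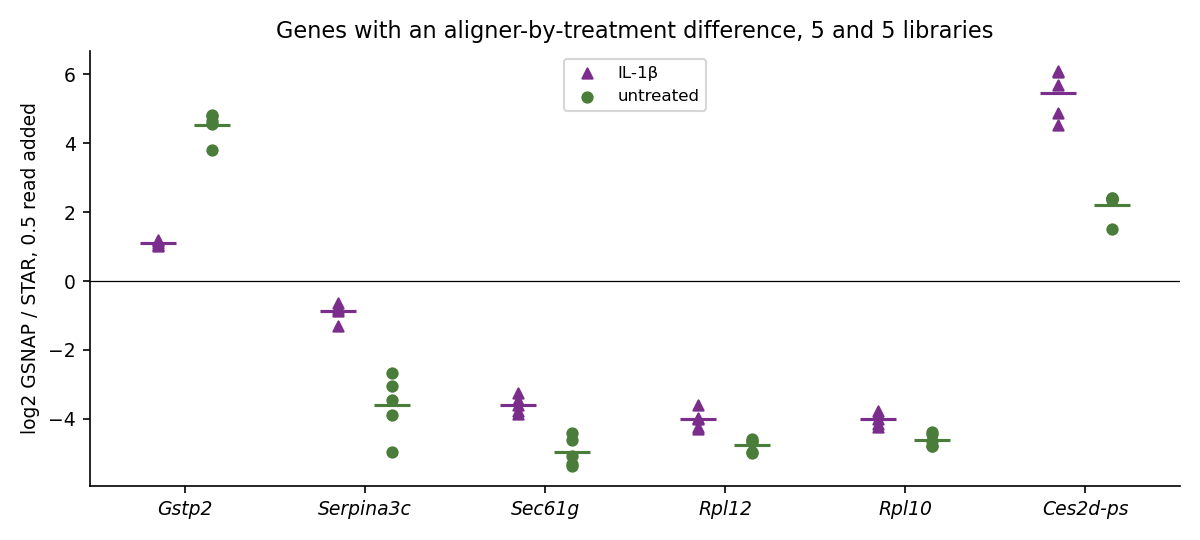
Log2 GSNAP/STAR in each library (0.5 reads added to each count) of the 6 genes whose aligner-by-treatment term passed, with 1 point per library (triangles IL-1β, circles untreated) and a line at the mean of each 5. Treated mice lie below untreated mice for Gstp2 and above them for the other 5 genes.

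At the level of families, the ratio of GSNAP to STAR shares differed between treated and untreated mice in 7 of 30 families (exact permutation of 5 against 5 mice, adjusted p = 0.0340), each by little. Among these 7 the largest difference was in the guanylate-binding proteins (Gbp, interferon-induced GTPases), whose summed response was 3.25 on the log2 scale with GSNAP and 3.40 with STAR. The responses of the summed families themselves were not tested and are given as values. They were 5.20 with GSNAP and 5.17 with STAR for serum amyloid A (Saa), an acute phase protein, and 6.48 and 6.50 for metallothioneins. The Mup family had -0.65 and -0.61, and ribosomal proteins, with the largest loss of reads, had 0.09 and 0.05. Of the 20 tested Mup genes, 12 passed the response test with GSNAP (60%) and 9 with STAR (45%). Over all genes tested the shares were 53.6% and 51.5%. Since 2 of these Mup genes passed the filter only in the GSNAP table, the counts cannot be compared between the tables.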

How the data were processed

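Gene-level counts of 37681 genes per library were deposited by the authors as whole numbers, one table per aligner. Per the submitters' processing notes, reads were aligned to mm9 with GSNAP, STAR 2.5.1b, or STAR followed by Bowtie2 2.2.9. The authors then removed ribosomal and mitochondrial reads, normalised depth within a table by random sampling and counted reads per Ensembl gene model; the deposited totals are lower in every treated than in every untreated library. Whether a count is a read or a pair, and how reads with several best places were counted, is not given in the sources used here. Both aligners were given the Ensembl gene models.

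The members and lists used here were chosen with earlier results of these data known. Genes that reached 5 reads in no fewer than 5 libraries of either table were tested in edgeR 4.0.16 (quasi-likelihood, R 4.3.3): the shift as aligner with library as a block and library-total scaling, the response as IL-1β against untreated with TMM, and the aligner-by-treatment term with library as a block and TMM. p-values were adjusted by Benjamini-Hochberg over all genes tested. Shares of classes and families were tested by exact sign flips over 10 libraries. The study's own response test was a Mann-Whitney test, used here as an alternative; limma 3.58.1 and DESeq2 1.42.0 were others. The p-values of the response measure the spread between mice. Those of the shift, the term and the shares measure how alike the difference between both columns of a library was across mice.

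The pairing comes from the labels, which give both columns the same mouse: deviations from group means correlated at 0.768 to 0.935 between the columns of a mouse and at most at 0.0811 between mice (12975 genes). Classes came from BLASTN 2.17.0 of coding sequences rather than the planned whole transcripts; the latter were an alternative added after the data were seen. Named genes are those the study discusses, those with the highest and lowest ratios at a mean of at least 100 reads, the 5 largest gains and losses in RPM (reads per 1000000 reads of the library), those passing the term at a mean of at least 20 reads, 2 members of each family (highest count and largest shift at a mean of at least 20 reads) and the closest matches of these. On counts simulated for 13810 genes, the shift fit recovered 100 of 100 genes changed 2-fold, the term fit 89 of 100 and the response fit 76 of 100, with 8, 4 and 10 false calls. The changed genes were drawn from those with an expected count of at least 10. Read sampling was simulated separately for both columns of a library, whereas the real columns hold largely the same reads. The rates of the shift and term fits therefore cannot be carried over to the real data. Log2 ratios of single libraries used a pseudocount of 0.5 reads.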

Additional observations from a re-analysis of the deposited data

Results flagged for a closer look

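The aligner-by-treatment term passed for 6 genes, the response with GSNAP minus that with STAR being -3.35 for Gstp2, 2.61 for Serpina3c, 1.32 for Sec61g, 0.61 for Rpl10, 0.78 for Rpl12 and 3.82 for Ces2d-ps (log2, edgeR quasi-likelihood test within libraries). In 7 families the log2 ratio of GSNAP to STAR share differed between treated and untreated mice by the exact permutation test (adjusted p = 0.0340 for each): 0.022 for Saa, -0.031 for sulfotransferases (Sult), -0.15 for Gbp, 0.020 for MHC class I, -0.043 for histones, 0.040 for ribosomal proteins and 0.070 for chaperones.

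Single libraries stood apart from the other 4 of their group in 6 of 92 groups examined, of which chance gives about 1 in 20. For the log2 GSNAP/STAR of Gstp2, the untreated mouse UNT-9580 had 3.80 while the others had 4.55 to 4.81. The same mouse had 1.5 for Ces2d-ps, where the others had 2.35 to 2.42. For ferritin the untreated mouse UNT-9584 had -0.417 and the others -0.614 to -0.573. The remaining 3 were the Cyp4 family in the untreated mouse UNT-9576 (-0.047, others -0.094 to -0.081), carboxylesterases in the untreated mouse UNT-9574 (-0.104, others -0.095 to -0.091) and zinc finger genes in the treated mouse ILB-9582 (0.031, others 0.042 to 0.044). The part of these libraries in the differences above was not tested beyond leaving each out.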

How the results depend on the processing

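With 10568530 to 11727437 counts per library, ratios of genes listed at or near 0 in one table rest on few reads. Genes higher with GSNAP numbered 367 when detection in both tables was required. At the adjusted p alone the shift gave 4614 genes with limma-voom and 1502 with no replicate block. The term called 2 genes with no filter on low counts and 2 with no replicate block, and 5 to 21 when 1 mouse was left out, 21 being without the untreated mouse UNT-9574. With no replicate block, Sec61g, Rpl10, Rpl12 and Ces2d-ps did not pass the term. The Mann-Whitney test, on counts not divided by the library total, called 2230 genes higher with IL-1β with GSNAP and 2155 with STAR. Leaving out 1 mouse gave 6904 to 7287 response genes with GSNAP and 6591 to 7018 with STAR, 885 to 891 genes higher with GSNAP and 313 to 320 higher with STAR.

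Without division by the library total, GSNAP/STAR crossed 1 for Serpina3 (1.02), Cyp4 (1.01), Sult (1.05), Hsd3b (1.05), Ifit (1.04), Orm (1.05), actins (1.05), tubulins (1.05), histones (1.01) and respiratory chain genes (1.02). It no longer passed for intron-containing paralogs (0.996), Gbp (0.950), MHC class I (0.996) and chaperones (0.989), and passed for Ugt (1.06), which also passed without the untreated mouse UNT-9584 (1.001 to 1.003 over the mice left out). The cause is the 1.06-fold larger GSNAP total. Log2 GSNAP/STAR near 0 changed sign for Actb (-0.033 with TMM), Alb (-0.0018 with TMM), Atp5b (-0.020 with TMM and -0.016 with DESeq2), Mt2 (-0.0087 with TMM and -0.0063 with DESeq2) and Saa2 (-0.030 with TMM, -0.032 with DESeq2 and -0.021 with no replicate block). All 8 classes moved in the same direction under whole-transcript matches. Of named genes' values, 4893 alternatives held direction and side of the threshold, 82 newly passed and 114 no longer passed.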

Other observations

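The Ion Torrent libraries of the same RNA, aligned with the same 2 programs, were counted by class as well. Of 14972 genes tested there, 2013 held a larger share with GSNAP (13.4%) and 128 a larger share with STAR (0.855%). Among the 12851 that passed the filter in both tables, 231 held a larger share with GSNAP (1.80%) and 124 a larger share with STAR (0.965%). Among pseudogenes with a coding match that passed in both tables, 124 of 147 were higher with GSNAP (84.4%), and among intron-containing genes with a pseudogene match 113 of 980 were higher with STAR (11.5%). The aligner-by-treatment term passed for 29 genes. Pseudogenes with a coding match held 1.46% of the Ion Torrent reads with GSNAP and 0.0499% with STAR.

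In the third Illumina table, in which reads left over by STAR were aligned with Bowtie2, these pseudogenes held 0.382% of the reads, and Gapdh had a mean of 809 RPM. Some spliced genes had reads with GSNAP and hardly any with STAR, among them C1rb (a duplicate of a complement protease subunit, chosen after its values were seen), which had 163 to 195 reads in every library with GSNAP and 3 reads in all 10 libraries together with STAR. Serpina3c had a mean of 9.10 RPM with GSNAP, 20.5 with STAR and 189 in the table with Bowtie2.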
